A study of Mus musculus with 32 samples.

Results

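Whole mouse embryos that lack a working copy of Commd10 were compared with WT embryos at embryonic day 9.5 (E9.5), over all genes counted, in the 12 libraries of that stage among the 32 of the series. There were 9 WT libraries and 3 libraries labelled COMMD10_Null, called Null from here on. All embryos came from intercrosses of Commd10_Het littermates of the congenic strain B6.Cg-Commd10Tg(Vav1-icre)A2Kio/J, in which a Vav1-iCre transgene sits in an intron of Commd10, so that Null embryos are homozygous for the insertion and also carry iCre under the Vav1 promoter, which is active in blood cells, while WT littermates carry no transgene. No treatment was given. Embryos were freed from the yolk sac, total RNA was extracted, and the QuantSeq 3′ FWD kit was used, which counts tags near the poly(A) tail of messenger RNA. Null embryos of this stage were by the study's account already retarded and partly degraded, no source used here says whether a library holds 1 embryo, and the 1 mutant line leaves the loss of Commd10 and other effects of the insertion unseparated.

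COMMD10 belongs to a family of proteins named after their shared COMM domain, which assemble with CCDC22 and CCDC93 into a complex that works with Retriever and the WASH complex to return membrane proteins from endosomes to the cell surface. In a WT mouse embryo of this stage the neural tube has mostly closed, its domains are marked by transcription factors such as Pax6, Nr2f1 and the Zic genes, the first neurons are being born under proneural factors, neural crest cells migrate, somites form from paraxial mesoderm, the heart beats and primitive red blood cells circulate from the yolk sac. The primitive streak, from which mesoderm and endoderm arose earlier, has been replaced by the tailbud.

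Total counts ran from 7025188 to 8328137 in WT and from 8017017 to 9069005 in Null libraries, so that depth was close to equal. The most abundant identifier of the table, ENSMUSG00000119584, has no symbol in the names table. It held 4.17 to 8.83% of the counts in WT and 20.2 to 22.1% in Null libraries, a difference of means of 15.1 percentage points (exact two-sided permutation test, p = 0.00455, the smallest that 220 assignments of 3 of 12 libraries can give). Genes of the mitochondrial genome held 3.29 to 4.22% in WT libraries and 1.90, 1.77 and 3.65% in Null replicates 1, 2 and 3, a difference of means of -1.38 percentage points (exact two-sided permutation p = 0.0182), which missed the threshold without Null replicate 1 (-1.11 points, p = 0.0727) and without Null replicate 2 (-1.04 points, p = 0.0727), where 2 Null libraries remained. Levels are given as CPM, counts scaled to library size with factors by the trimmed mean of M-values (TMM), which were 0.993 to 1.07 in WT and 0.869 to 0.954 in Null libraries. Null levels are listed in the order of replicates 1, 2 and 3, and WT levels as the lowest and highest of 9 libraries with the median. Because these are bulk samples, fewer cells of a type and less RNA per cell cannot be told apart, and p-values measure only the spread between these libraries, whose litters are not given.

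The 3 Null libraries stood farther from each other than any pair of WT libraries did, with replicates 1 and 3 farthest apart. The root mean square difference of log2 CPM over the 13483 genes tested was 1.05 between Null replicates 1 and 2, 1.35 between replicates 1 and 3 and 1.07 between replicates 2 and 3, against 0.381 to 0.576 (median 0.484) over the 36 pairs of WT libraries. Genes at least 2-fold apart numbered 3217 between replicates 1 and 2, 4721 between replicates 1 and 3 and 3408 between replicates 2 and 3, and 372 to 970 in the WT pairs. In a principal component analysis (PCA) of the 500 most variable genes, the first component (74.3% of the variance) placed WT libraries at -23.0 to -6.84 and Null replicates at 46.6, 44.1 and 71.6, and the second (12.2%) spread the Null replicates over 34.1, 4.12 and -27.7 while WT libraries spanned -4.58 to 4.77.

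**Figure D1:**
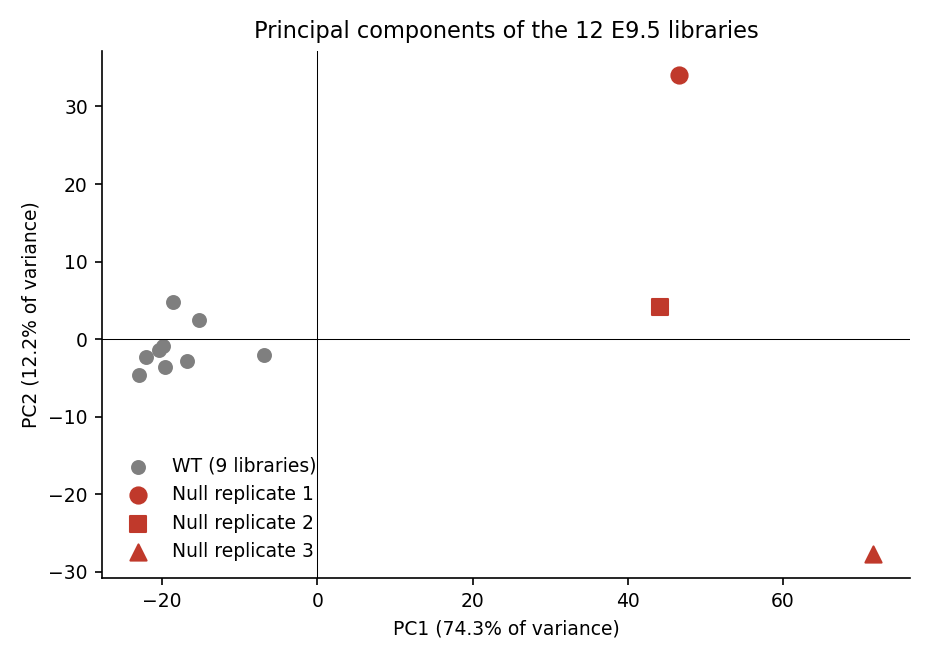
First and second principal components of the 12 E9.5 libraries, in arbitrary units of the transformed counts of the 500 most variable genes, with the share of variance on each axis. WT libraries (grey) lie together on the left, and the 3 Null libraries (red, 1 marker for each replicate) lie on the right and are spread along the second component, with replicate 3 lowest and farthest to the right.

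The libraries also differed in sex. Xist, the RNA that silences an X chromosome in female cells, was at 75.0, 72.9 and 0 CPM in the Null replicates and at 0 to 80.1 CPM with a median of 0 in WT libraries. The Y-linked genes Ddx3y and Eif2s3y were at 0, 0 and 80.1 CPM and 0, 0 and 31.9 CPM. Null replicates 1 and 2 thus read as female and replicate 3 as male, while WT levels of Ddx3y ran from 0 to 36.3 CPM with a median of 30.3. None of the 5 sex-linked genes followed passed the edgeR test between the groups with all libraries (0 at an unadjusted p under 0.05, and 0 DEGs by DESeq2), while 4 were DEGs lower without Null replicate 3, and their part in other differences between the replicates was not tested.

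Genes at least 2-fold above or below the mean of the other 2 replicates numbered 1838 and 1871 for replicate 3, 1429 and 2070 for replicate 1, and 1438 and 869 for replicate 2. By tissue, replicate 3 was at least 2-fold above the other 2 in 30 of 33 genes of the yolk sac and visceral endoderm, in 21 of 24 erythroid genes other than globins and in 15 of 30 lysosomal genes, with none of these at least 2-fold below. It was at least 2-fold below in 23 of 23 cardiomyocyte genes, 17 of 28 neural crest genes and 10 of 14 Hedgehog pathway genes. Over all 13483 genes these shares were 13.6% above and 13.9% below. By the same measure, replicate 1 was at least 2-fold below the mean of replicates 2 and 3 in 26 yolk sac, 8 erythroid and 6 lysosomal genes and at least 2-fold above it in 18 cardiomyocyte, 9 neural crest and 3 Hedgehog genes. Over all genes these shares were 15.4% below and 10.6% above. That mean includes replicate 3, so a far replicate 3 shifts replicate 1 the other way. These counts therefore cannot show a departure of replicate 1 on its own.

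Apart from the sex-linked genes, those farthest above in replicate 3 included Aqp3, an aquaporin of epithelia, at 0, 3.01 and 58.9 CPM. Fgg, the gamma chain of fibrinogen, stood at 0.283, 2.49 and 72.0 CPM, and Slc7a8, an amino acid transporter, at 0.141, 5.24 and 81.3 CPM. All 3 passed the test with 12 libraries (log2 fold changes of 4.21, 5.12 and 4.52) and none of them did without Null replicate 3 (0.46, 0.98 and 1.11, with adjusted p of 0.625, 0.347 and 0.172). They were picked for their excess in that library, which makes such a loss likely. Of the others picked so, Aass and Fga also lost the call. Tex19.1 stayed a DEG higher by the same test (6.44 with and 2.15 without Null replicate 3, adjusted p = 0.0086 without it). Gpr155 changed sign (2.89 and -2.58, adjusted p = 0.0448 without it). In replicate 1, Aqp3 and Slc7a8 lay below all WT libraries and Fgg within their range. Actn2, the actinin of the sarcomere, was among the farthest below, at 16.5, 14.5 and 0.374 CPM against 8.64 to 18.2 CPM with a median of 14.5 in WT libraries. Most results below are also given without Null replicate 3, a value that rests on 2 Null libraries.

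Commd10 itself was higher in Null embryos, at 60.6, 84.8 and 88.8 CPM against 39.4 to 56.4 CPM with a median of 48 in WT libraries. The rise was 0.69 on the log2 scale (SE 0.12, adjusted p = 0.000527, quasi-likelihood test of edgeR) and 0.58 without Null replicate 3. Every Null library lay above every WT library. Commd10 (ENSMUSG00000042705) lies on chromosome 18 of GRCm38 (mm10), and its 3′ tags come from beyond the inserted transgene, so that this level checks neither the genotype nor the protein. The study genotyped embryos from yolk sac DNA and by Western blot found no COMMD10 protein in Null embryos of an earlier stage. Commd10 overlaps 4 annotated genes on the same strand, whose tags could be counted with its own. Of the 9 COMMD genes tested, 4 passed the test higher and 2 lower, and the 1 differentially expressed gene (DEG), meaning a change of at least 2-fold at an adjusted p up to 0.05, was Commd4 at 48.6, 37.2 and 75.7 CPM against 20.8 to 31.1 CPM with a median of 25.5 (log2 fold change 1.04, SE 0.17, adjusted p = 0.000273). It stayed under 2-fold without Null replicate 3 (0.71), though it passed. Over all genes 20.2% passed higher and 17.4% lower, and 9.35% were DEGs higher, a share like that of the COMMD genes. Commd3 rose within a narrow span, at 65.6, 64.2 and 69.9 CPM against 35.6 to 41.9 CPM with a median of 38.1 (log2 fold change 0.78, SE 0.09, adjusted p = 1.82e-05, 0.74 without Null replicate 3). Commd1, which works in copper and endosomal transport, was at 9.61, 44.7 and 55.6 CPM against 45.7 to 78.5 CPM with a median of 69.8 (log2 fold change -0.89, SE 0.33, adjusted p = 0.0468), and the call was lost when any of WT replicates 1 to 8 or Null replicate 2 was left out (-1.06 without the latter), while without Null replicate 3 it was -1.32 (adjusted p = 0.00731). Commd2 (log2 fold change -0.40, SE 0.15, adjusted p = 0.0479) lost its call likewise, and without Null replicate 1 (-0.25) and 2 (-0.30) as well. Commd9, at 4.52, 7.73 and 14.0 CPM, did not pass. Among 19 genes of Retriever and its partners, 9 passed higher and 2 lower, against 20.2 and 17.4% of all 13483 genes tested, with 1 DEG, a smaller share than the 9.35% of DEGs higher over all genes. It was the sorting nexin Snx2 (log2 fold change 1.40, SE 0.35, adjusted p = 0.00559), whose call was lost without Null replicate 3 (0.42, adjusted p = 0.236) and whose level was 16.4, 55.3 and 139 CPM in the Null replicates against 20.9 to 31.0 CPM with a median of 26.9. The only DEG among 10 neighbours of Commd10, a share like the 9.35% of DEGs higher over all genes, was Ticam2, an adaptor of Toll-like receptor signalling, at 5.09, 3.15 and 4.37 CPM against 0.136 to 1.38 CPM with a median of 0.741 (log2 fold change 2.40, SE 0.42, adjusted p = 0.000434, 2.37 without Null replicate 3). Ticam2 overlaps Tmed7 on the same strand, so that its tags could belong to either gene.

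Over all genes, 1261 DEGs (9.35% of 13483) were higher and 1034 (7.67%) lower in Null embryos, and 381 of the former and 446 of the latter changed at least 4-fold. The median log2 fold change of all genes was 0.02. In 743 of the DEGs higher and 837 of the DEGs lower, every Null library lay beyond every WT library, which over all genes tested held for 10.8% above and 12.1% below. Without Null replicate 3 there were 1143 DEGs higher (8.28% of 13802 genes tested) and 1103 lower (7.99%). Of the DEGs higher, 861 were shared (68.3% of those with all libraries and 75.3% of those without the replicate), of the DEGs lower 812 (78.5 and 73.6%), and 25 DEGs changed sign. With library sizes used without TMM factors, the split was 937 higher against 1409 lower, and the median of all genes moved to -0.17, so the balance of the directions depends on the scaling. Where a list is said below to hold 0 DEGs in a direction, DESeq2 called 0 there as well, save for 1 erythroid gene lower. Outside the lists of apoptosis, unfolded protein response and NF-kB genes, whose counts are given with them, no more than 1 gene of the list had an unadjusted p under 0.05 by edgeR in that direction.

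Most of the largest decreases were of neural transcription factors. Tfap2b, a factor of neural crest and hindbrain on chromosome 1 (19208914 to 19238576), had no count in any Null library and 51.2 to 74.3 CPM with a median of 58.7 in WT libraries, at least 457-fold lower from a floor of 3 counts over the Null group. Zic1 was at 0.424, 0 and 0 CPM against 81.2 to 109 CPM with a median of 89.2, a ratio of 701 with an exact 95% counting interval of 239.8 to 3401 from 3 Null counts. Neurog2, Neurog1 and Six6 had no Null count either, Pou3f2, Uncx, Nhlh2 and Dbx1 had 3 or 4, and these 9 were among the 10 largest decreases of DEGs without overlap and with a mean of at least 10 CPM. In all, 75 DEGs lower had no count in the 3 Null libraries, and 0 DEGs higher had none in the 9 WT libraries. Intervals and floors cover counting error only.

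The 10 largest increases were mostly of genes that are low in WT embryos at this stage. Among them were Rhox6, Vrtn, Prl8a2, Eomes, Amn, Pdzk1, Ascl2, 4933402E13Rik and Aqp8. Rhox6, a homeobox gene of the placenta and germ line, stood at 3.53, 10.4 and 145 CPM against 0 to 0.606 CPM with a median of 0.144 (log2 fold change 7.88, SE 0.86, adjusted p = 7.65e-06, 4.94 without Null replicate 3). The scaffold gene Pdzk1 stood at 5.51, 6.95 and 125 CPM (log2 fold changes of 6.63 with and 3.75 without Null replicate 3, as in the brackets that follow), Ascl2 of the trophoblast at 2.97, 2.75 and 85.6 CPM (6.63 and 3.22), and Aqp8, a water channel, at 8.06, 4.85 and 91.6 CPM (6.47 and 4.04). In each of these the value was carried mainly by replicate 3. Replicates 1 and 2 also lay above all WT libraries, but that was a condition for being among these 10 genes. Prl8a2, Eomes and Amn are described with their tissues. 4933402E13Rik (10.3, 3.93 and 75.1 CPM) followed them, with log2 fold changes of 6.59 with and 4.52 without that replicate. Vrtn, a factor that sets the number of thoracic vertebrae in pigs, ran the other way, highest in replicate 1 at 50.5, 9.17 and 6.49 CPM against 0 to 0.364 CPM with a median of 0 (log2 fold change 7.78, SE 0.69, adjusted p = 1.03e-06, 8.21 without Null replicate 3).

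**Figure D2:**
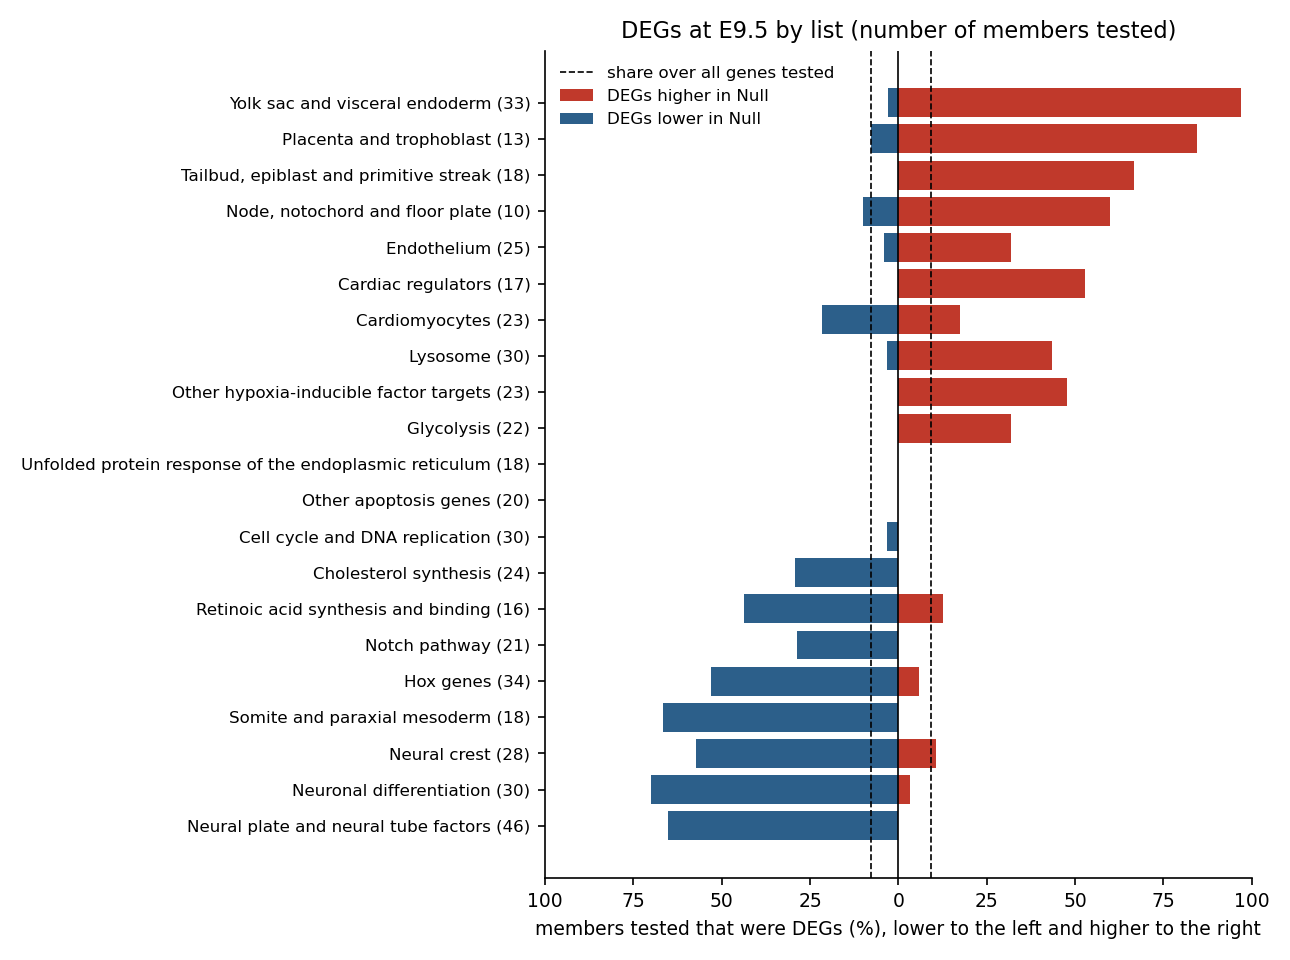
Percent of the tested members of each of 21 lists that were DEGs higher (red, to the right) or lower (blue, to the left) in Null than in WT embryos, with the number tested in brackets and the shares over all genes tested (9.35% higher, 7.67% lower) as dashed lines. Lists of neural, somite and Hox genes lie mostly to the left and those of the yolk sac, placenta, streak and hypoxia mostly to the right, while the apoptosis and unfolded protein lists hold no DEG.

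The factors that pattern the neural tube were mostly lower in Null embryos. Of 46 tested, 30 were DEGs lower and 0 DEGs higher, against 7.67 and 9.35% of all genes, with a median log2 fold change of -2.39, and the same counts held without Null replicate 3 (30 and 0, median -2.31). The summed level of the list was 902, 529 and 406 CPM in the Null replicates and 1642 to 2103 CPM in WT libraries. Pax6, which marks the neural tube and the eye, fell from 26.0 to 50.7 CPM with a median of 39.5 in WT to 1.41, 1.83 and 2.00 CPM in Null libraries (log2 fold change -4.46, SE 0.29, adjusted p = 4.95e-08, -4.57 without Null replicate 3). Nr2f1, a COUP-TF nuclear receptor, stood at 3.96, 6.16 and 2.62 CPM against 192 to 296 CPM with a median of 239 (log2 fold change -5.83, SE 0.25, adjusted p = 1.06e-09, -5.57 without the replicate). Neither overlapped between the groups, and both were low in every Null replicate.

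The ventral and intermediate neural tube showed the same direction. Olig2 of motor neuron progenitors was at 0.424, 0 and 0.125 CPM against 7.53 to 20.6 CPM with a median of 15.0 (log2 fold change -6.23, SE 0.58, adjusted p = 1.46e-06). Dbx1 of interneuron progenitors was at 0, 0.524 and 0 CPM against 9.96 to 21.9 CPM with a median of 14.4 (log2 fold change -6.25, SE 0.56, adjusted p = 1.22e-06). Msx3, a factor of the dorsal neural tube, was at 0.283, 0.524 and 0.374 CPM against 10.8 to 23.7 CPM with a median of 19.0 (log2 fold change -5.52, SE 0.39, adjusted p = 1.1e-07), and the anterior factor Six6, on chromosome 12 (72939892 to 72944899), had no Null count and 8.15 to 15.2 CPM with a median of 11.2 in WT libraries, at least 89.4-fold lower. Pou3f2 stood at 0.283, 0.262 and 0 CPM against 30.1 to 57.0 CPM with a median of 38.6 (log2 fold change -7.78, SE 0.43, adjusted p = 1.14e-08). None of the 5 overlapped, against 12.1% of all genes in which every Null library lay below every WT library. Dbx1, Six6 and Pou3f2 were among the 10 largest decreases, for which lack of overlap was a condition. Without Null replicate 3 the log2 fold changes stayed at -6.04, -5.67 and -5.49 for the first 3 genes and -7.20 for Pou3f2. For Dbx1 the 4 counts lay in replicate 2, and the other Null libraries had none.

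The SoxB1 factors, which are on throughout neural progenitors, fell less. Sox2 was at 67.1, 41.7 and 25.4 CPM against 100.6 to 138 CPM with a median of 125 (log2 fold change -1.47, SE 0.21, adjusted p = 7.66e-05, -1.19 without Null replicate 3). Sox1 was at 10.9, 10.9 and 3.12 CPM against 26.4 to 49.2 CPM with a median of 38 (log2 fold change -2.24, SE 0.30, adjusted p = 4.51e-05, -1.84 without the replicate). Both fell without overlap, and both were lowest in replicate 3. The anterior genes Otx2 and Six3 split the Null group instead. Otx2 was at 121, 18.5 and 5.49 CPM against 32.6 to 64.1 CPM with a median of 43.9 and Six3 at 139, 9.44 and 3.99 CPM against 45.8 to 105 CPM with a median of 74.3, so that replicate 1 lay above and replicates 2 and 3 below all WT libraries in both genes. Neither passed the test (log2 fold change 0.07, SE 0.53, adjusted p = 0.935 and -0.52, SE 0.65, adjusted p = 0.559), and the fit without Null replicate 1 gave log2 fold changes of -1.95 and -3.45 (adjusted p = 0.000444 and 3.64e-06).

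Genes of newborn neurons were mostly lower too. Of 30 tested, 21 were DEGs lower, with a median log2 fold change of -2.41, and 1, Lhx1, was a DEG higher. The counts were the same without Null replicate 3 (21 and 1). The proneural factors Neurog1 and Neurog2, which commit progenitors to a neuronal fate, had no count in any of the 3 Null libraries, against 8.91 to 18.0 CPM with a median of 13.8 and 9.17 to 21.1 CPM with a median of 16.4 in WT libraries. They were at least 102 and 113-fold lower (adjusted p = 1.62e-07 and 4.59e-07). Neurod1, which acts after them, was at 0.283, 0.393 and 0 CPM against 10.2 to 19.8 CPM with a median of 15.5 (log2 fold change -5.97, SE 0.45, adjusted p = 2.26e-07, -5.39 without Null replicate 3), and Nhlh2 at 0, 0.393 and 0 CPM against 4.27 to 28.4 CPM with a median of 14.7, a ratio of 112 with a counting interval of 38.1 to 542. These transcripts thus lay at or near 0 in every Null library and were present in every WT library.

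Tubb3, the beta tubulin of neurons, kept a low level of 8.48, 7.21 and 7.73 CPM in Null libraries, against 20.6 to 58.0 CPM with a median of 32.7 in WT libraries (log2 fold change -2.29, SE 0.31, adjusted p = 4.84e-05, -2.29 without Null replicate 3), with no overlap. Lhx1, which besides interneurons marks the lateral and axial mesoderm of the gastrula, went the other way, at 62.2, 10.1 and 10.1 CPM against 2.67 to 9.04 CPM with a median of 3.83 (log2 fold change 2.43, SE 0.45, adjusted p = 0.000725, 2.82 without Null replicate 3). It was highest in replicate 1, and without that library its log2 fold change was 0.99 (adjusted p = 0.0373).

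**Figure D3:**
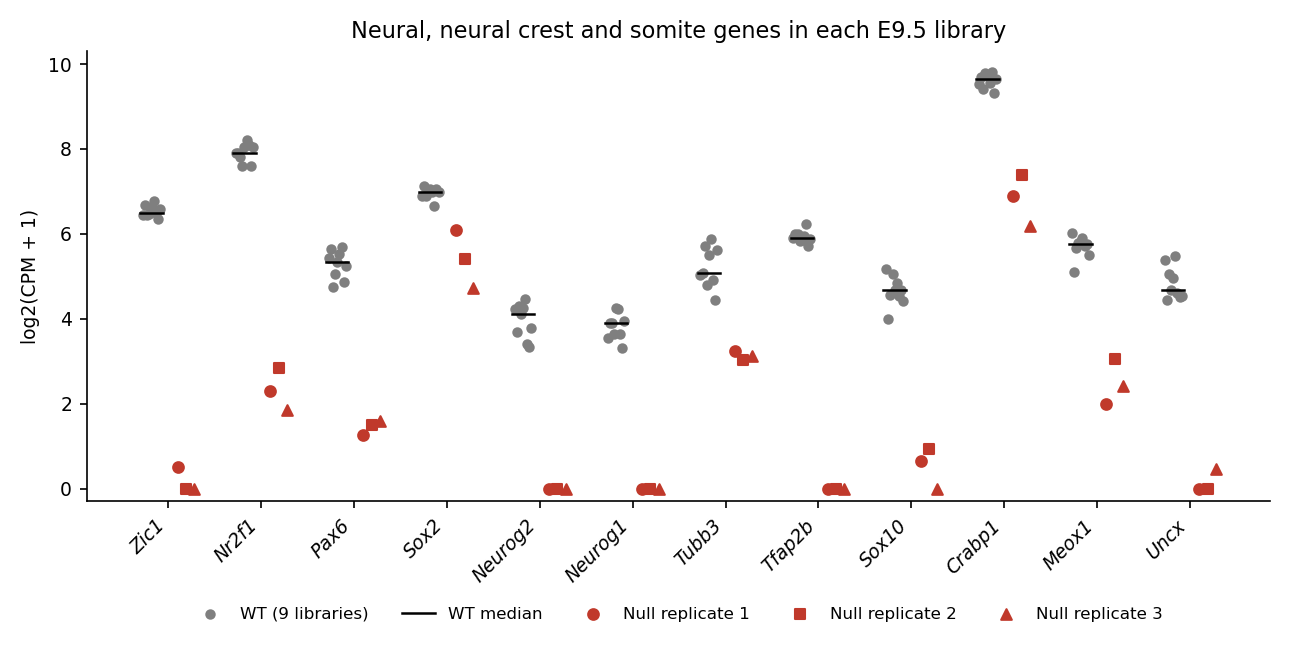
Level of 12 neural, neural crest and somite genes as log2(CPM + 1) in each E9.5 library, for 9 WT libraries (grey, with the median as a line) and the 3 Null replicates (red, 1 marker for each). All Null libraries lie below all WT libraries in the 12 genes, and Neurog1, Neurog2 and Tfap2b are at 0 in all 3.

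Neural crest genes were lower in part. Of 28 tested, 16 were DEGs lower and 3, Mef2c, Tfap2c and Rxrg, DEGs higher, with a median log2 fold change of -1.23. Without Null replicate 3 the counts were 11 and 2. Sox10, a defining factor of migrating crest and of glia, was at 0.565, 0.917 and 0 CPM against 15.0 to 35.2 CPM with a median of 24.5 (log2 fold change -5.63, SE 0.47, adjusted p = 5.53e-07, -5.03 without Null replicate 3). Dlx2 of the pharyngeal arches was at 6.22, 5.24 and 1.87 CPM against 22.4 to 27.2 CPM with a median of 24.8 (log2 fold change -2.48, SE 0.26, adjusted p = 4.62e-06, -2.11 without the replicate). Both fell without overlap. The earlier crest factors were less clear, with Foxd3 at 0.707, 6.82 and 0 CPM against 4.88 to 9.27 CPM with a median of 8.14 (adjusted p = 0.0785) and Tfap2a at 26.3, 14.3 and 7.98 CPM against 18.0 to 32.9 CPM with a median of 22.7 (adjusted p = 0.145), whose groups overlapped. Of 12 genes of the otic, lens and olfactory placodes, 4 were DEGs lower (Foxi2, Otx1 and Sox2 among them) and 3 DEGs higher (Fgf3, Gata3 and Sall4), and 5 and 3 without Null replicate 3. Fgf3, a growth factor of the hindbrain and of the streak, was at 26.4, 13.4 and 12.3 CPM against 1.85 to 5.17 CPM with a median of 3.04 (log2 fold change 2.44, SE 0.30, adjusted p = 1.97e-05, 2.63 without the replicate).

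Somite genes fell as a group. Of 18 tested, 12 were DEGs lower and 0 higher (11 and 2 without Null replicate 3), with a median log2 fold change of -2.90, and the summed level was 155, 109 and 52.5 CPM in the Null replicates against 263 to 391 CPM in WT libraries. Meox1 was at 2.97, 7.34 and 4.37 CPM against 33.1 to 64.3 CPM with a median of 53.6 (log2 fold change -3.39, SE 0.26, adjusted p = 3.03e-07). Tcf15, which the somite needs to become epithelial, was at 1.55, 4.06 and 1.75 CPM against 21.2 to 31.1 CPM with a median of 26.9 (log2 fold change -3.42, SE 0.27, adjusted p = 3.58e-07). Uncx of the posterior somite half-segment had 3 counts in replicate 3 and none in the others, against 20.8 to 43.3 CPM with a median of 24.6, a ratio of 218 with a counting interval of 74.4 to 1057. Tbx18 of the anterior half-segment was at 0.848, 4.06 and 1.37 CPM against 16.6 to 23.2 CPM with a median of 18.3 (log2 fold change -3.16, SE 0.34, adjusted p = 5.88e-06), and Myog of the first muscle cells had no Null count, at least 34-fold lower than its WT level of 0.970 to 7.41 CPM with a median of 4.37. None of these genes overlapped. Without Null replicate 3 the values were -3.31 for Meox1, -3.22 for Tcf15 and -2.93 for Tbx18.

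The Hox genes, which set position along the body axis, were mostly lower. Of 34 tested, 18 were DEGs lower and 2 DEGs higher, Hoxd1 among them, with the same counts without Null replicate 3 and medians of -1.41 and -1.38. Hoxd4 stood at 5.94, 6.42 and 5.86 CPM against 34.7 to 60.7 CPM with a median of 46.3 (log2 fold change -2.99, SE 0.20, adjusted p = 7.28e-08, -2.96 without Null replicate 3). Hoxa4 was at 1.13, 0.655 and 0.873 CPM against 10.7 to 15.7 CPM with a median of 13.2 (log2 fold change -3.86, SE 0.25, adjusted p = 5.62e-08, -3.86 without Null replicate 3). Hoxc5 was at 2.12, 1.70 and 2.49 CPM against 12.9 to 21.2 CPM with a median of 15.1 (log2 fold change -2.93, SE 0.24, adjusted p = 4.23e-07, -3.08 without Null replicate 3). The 3 Null libraries agreed closely in these genes and none overlapped with WT. Hoxa4, Hoxd4 and Hoxc5 share annotated span with neighbouring Hox genes, so that their tags could be split between neighbours.

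Among signalling genes, those of neural progenitors were lower. Of 21 Notch pathway genes 6 were DEGs lower and 0 higher, with the same counts without Null replicate 3. Hes5, the Notch target that keeps neural progenitors dividing, was at 4.8, 4.33 and 6.11 CPM against 85.6 to 136 CPM with a median of 109.9 (log2 fold change -4.42, SE 0.21, adjusted p = 2.44e-09, -4.59 without Null replicate 3). The Notch ligand gene Dll1 was at 0.283, 2.62 and 3.49 CPM against 8.87 to 15.2 CPM with a median of 12.6 (log2 fold change -2.52, SE 0.40, adjusted p = 0.000199, -3.06 without Null replicate 3). Lfng, which modifies the receptor, was at 9.61, 6.95 and 2.74 CPM against 10.4 to 22.8 CPM with a median of 15.9 (log2 fold change -1.37, SE 0.31, adjusted p = 0.00278, -1.01 without Null replicate 3). All 3 fell without overlap. The receptors Notch1, Notch2 and Notch3 did not pass.

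Retinoic acid genes showed 7 DEGs lower and 2, Cyp26a1 and Rxrg, higher of 16 tested (6 and 2 without Null replicate 3). The binding proteins Crabp2, at 32.2, 45.9 and 44 CPM against 298 to 416 CPM with a median of 360.2 (log2 fold change -3.16, SE 0.15, adjusted p = 2.44e-09), and Crabp1, at 118, 167 and 71.3 CPM against 638 to 904 CPM with a median of 805 (log2 fold change -2.72, SE 0.22, adjusted p = 3.44e-07), fell, as did Cyp26b1, an enzyme that breaks retinoic acid down in the hindbrain, at 3.25, 0.786 and 3.12 CPM against 47.9 to 102 CPM with a median of 82.1 (log2 fold change -4.95, SE 0.40, adjusted p = 4.23e-07). Aldh1a3, an enzyme of its synthesis in the eye, was at 0.565, 1.18 and 0.748 CPM against 16.1 to 27.0 CPM with a median of 18.6 (log2 fold change -4.50, SE 0.28, adjusted p = 4.64e-08). The main synthesizing enzyme of trunk mesoderm, Aldh1a2, was at 34.2, 35 and 16.0 CPM against 27.2 to 46.2 CPM with a median of 34.2 and did not pass (adjusted p = 0.304), while Cyp26a1 of the tailbud rose at 15.7, 14.4 and 14.1 CPM against 4.88 to 8.57 CPM with a median of 7.17 (log2 fold change 1.08, SE 0.18, adjusted p = 0.000309). Without Null replicate 3 the values were -3.22, -2.47, -5.21 and -4.43 for the 4 that fell and 1.10 for Cyp26a1. The 2 Cyp26 genes thus moved in opposite directions, each without overlap.

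Other pathways were mixed, and their counts stand beside 9.35% DEGs higher and 7.67% lower over all genes. Of 36 Wnt pathway genes 7 were DEGs lower and 5 higher (Wnt2, Fzd5, Sp5, Dkk1 and Sfrp5), with the same counts without Null replicate 3. The receptor Fzd3, at 19.1, 29.0 and 13.7 CPM against 95.9 to 152 CPM with a median of 121 (log2 fold change -2.62, SE 0.21, adjusted p = 4.23e-07), and the antagonist Sfrp2, at 12.7, 15.5 and 5.74 CPM against 59.1 to 103 CPM with a median of 86.1 (log2 fold change -2.87, SE 0.26, adjusted p = 1.05e-06), fell, while the antagonist Sfrp5, at 43.8, 44.2 and 20.6 CPM against 7.79 to 13.4 CPM with a median of 8.36 (log2 fold change 1.97, SE 0.21, adjusted p = 5.1e-06), and Wnt2, a ligand of the heart and allantois, at 61.0, 73.5 and 20.5 CPM against 18.1 to 28.7 CPM with a median of 22.4 (log2 fold change 1.18, SE 0.25, adjusted p = 0.00201), rose. Wnt2 in replicate 3 lay within the WT range. So did the inhibitor Dkk1, at 46.1, 40.5 and 8.48 CPM against 4.20 to 12.2 CPM with a median of 7.15 (log2 fold change 2.02, SE 0.37, adjusted p = 0.000636, 2.47 without that replicate). Without Null replicate 3 the values were -2.40, -2.55, 2.25 and 1.55 for the other 4 in the order named.

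Of 14 Hedgehog genes 2, Ptch1 and Foxf1, were DEGs higher and 3, Cdon, Gas1 and Nkx2-2, lower (3 and 2 without Null replicate 3), against 9.35 and 7.67% of all genes. The receptor Ptch1 stood at 264, 206 and 105 CPM against 74.2 to 100.3 CPM with a median of 83.8 (log2 fold change 1.18, SE 0.18, adjusted p = 0.000145, 1.47 without Null replicate 3), the factor Foxf1 of the lateral mesoderm at 68.0, 99.3 and 51.4 CPM against 16.8 to 23.6 CPM with a median of 19.1 (log2 fold change 1.89, SE 0.15, adjusted p = 4.23e-07, 2.08 without Null replicate 3). The coreceptor Gas1 was at 20.8, 62.9 and 23.3 CPM against 141 to 199.7 CPM with a median of 177 (log2 fold change -2.30, SE 0.27, adjusted p = 1.7e-05, -2.07 without Null replicate 3). Of 22 genes of BMP, activin and their antagonists 7 were DEGs higher and 2, Gdf11 and Grem1, lower (9 and 2 without Null replicate 3). Bmp2, at 91.9, 104 and 37.9 CPM against 11.7 to 26.2 CPM with a median of 17.2 (log2 fold change 2.12, SE 0.24, adjusted p = 1.03e-05, 2.44 without Null replicate 3), and the feedback inhibitor Smad7, at 17.2, 29.0 and 33.1 CPM against 5.41 to 10.2 CPM with a median of 7.89 (log2 fold change 1.76, SE 0.20, adjusted p = 1.14e-05, 1.56 without Null replicate 3), rose without overlap. The growth factors midkine and pleiotrophin both fell. Mdk was at 676, 958 and 396 CPM against 1894 to 2387 CPM with a median of 2196 (log2 fold change -1.69, SE 0.19, adjusted p = 1.17e-05, -1.42 without Null replicate 3). Ptn was at 10.6, 29.6 and 15.3 CPM against 98.8 to 155 CPM with a median of 124 (log2 fold change -2.75, SE 0.25, adjusted p = 1.46e-06, -2.63 without Null replicate 3).

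Genes of the primitive streak, the epiblast and the tailbud were higher in Null embryos. Of 18 tested, 12 were DEGs higher and 0 lower (15 and 0 without Null replicate 3), with a median log2 fold change of 2.40, and the summed level was 566, 329 and 280 CPM in the Null replicates against 72.2 to 149 CPM in WT libraries. T (brachyury), which nascent mesoderm and notochord need, was at 113, 39.2 and 15.7 CPM against 3.95 to 12.8 CPM with a median of 7.88 (log2 fold change 2.73, SE 0.39, adjusted p = 7.78e-05). Eomes, a factor of the early streak and the trophoblast, was at 27.4, 3.41 and 10.1 CPM against 0 to 0.364 CPM with a median of 0 (log2 fold change 6.91, SE 0.64, adjusted p = 1.5e-06). Mixl1 of the streak was at 34.8, 8.91 and 4.49 CPM against 0 to 0.952 CPM with a median of 0.494 (log2 fold change 4.91, SE 0.52, adjusted p = 5.38e-06). Each Null library lay above each WT library in these genes, with replicate 1 highest. Without Null replicate 1 the values were 1.70 for T, 5.90 for Eomes and 3.65 for Mixl1, and without replicate 3 they were 3.17, 7.08 and 5.35.

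The caudal factors rose too, Cdx2 and Cdx1 to a like degree in all 3 Null replicates. Cdx2 was at 62.9, 58.2 and 45.2 CPM against 5.22 to 13.8 CPM with a median of 8.53 (log2 fold change 2.71, SE 0.22, adjusted p = 4.24e-07, 2.84 without Null replicate 3). Cdx1 was at 33.4, 26.2 and 31.7 CPM against 4.36 to 8.66 CPM with a median of 6.54 (log2 fold change 2.27, SE 0.18, adjusted p = 4.24e-07, 2.23 without Null replicate 3). Nkx1-2 of the caudal neural and mesodermal progenitors was at 49.7, 33.6 and 13.8 CPM against 2.07 to 8.16 CPM with a median of 5.21 (log2 fold change 2.54, SE 0.33, adjusted p = 3.67e-05, 2.90 without Null replicate 3). Lefty2, a Nodal inhibitor of the streak, was at 25.6, 2.23 and 25.3 CPM against 0 to 0.680 CPM with a median of 0.247 (log2 fold change 5.77, SE 0.57, adjusted p = 2.9e-06, 5.41 without Null replicate 3). None overlapped, with Nkx1-2 lowest of the Null libraries in replicate 3 and Lefty2 in replicate 2. Of 10 genes of the node, notochord and floor plate, 6 were DEGs higher and 1 lower (7 and 1 without Null replicate 3). Noto of the node was at 3.39, 4.06 and 1.87 CPM against 0.123 to 1.51 CPM with a median of 0.494 (log2 fold change 2.27, SE 0.52, adjusted p = 0.00315, 2.53 without Null replicate 3).

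The transcription factors of the heart were higher in Null embryos, while the genes of heart muscle differed between the Null libraries. Of 17 cardiac regulators 9 were DEGs higher and 0 lower (8 and 0 without Null replicate 3), with a median log2 fold change of 1.2. Gata4 was at 60.6, 50.9 and 71.8 CPM against 10.47 to 13.7 CPM with a median of 12.7 (log2 fold change 2.30, SE 0.12, adjusted p = 1.01e-08, 2.16 without Null replicate 3). Hand1 was at 193, 159 and 227 CPM against 18.5 to 39.5 CPM with a median of 29.7 (log2 fold change 2.76, SE 0.21, adjusted p = 2.35e-07, 2.62 without Null replicate 3). Tbx20 was at 128, 151 and 55.1 CPM against 12.5 to 23.0 CPM with a median of 17.8 (log2 fold change 2.68, SE 0.22, adjusted p = 5.41e-07, 3.00 without Null replicate 3). Gata6 (log2 fold change 1.2, SE 0.17, adjusted p = 5.6e-05, 1.18 without Null replicate 3) and Gata5, at 70.5, 46.3 and 19.2 CPM against 4.20 to 10.7 CPM with a median of 8.00 (log2 fold change 2.49, SE 0.28, adjusted p = 1.06e-05, 2.85 without Null replicate 3), rose too. None of these 5 overlapped, and all but Tbx20 and Hand1 are also on in endoderm, while Hand1 is also on in the trophoblast and extraembryonic mesoderm. Nkx2-5, the defining factor of heart progenitors, was at 54.4, 21.8 and 8.36 CPM against 5.93 to 11.8 CPM with a median of 7.04 (log2 fold change 1.75, SE 0.36, adjusted p = 0.0014). Myocd, which turns on muscle genes, was at 28.5, 16.0 and 5.61 CPM against 2.51 to 7.53 CPM with a median of 5.07 (log2 fold change 1.70, SE 0.36, adjusted p = 0.00167). In both, replicate 3 lay within the WT range, the value without it was 2.18 and 2.11, and that without replicate 1 was 0.84 and 1.06.

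Of 23 cardiomyocyte genes 4 were DEGs higher (Myl7, Tnnt2, Ttn and Ryr2) and 5 lower (Myl2, Nppa, Smpx, Tnni3 and Pln), and without Null replicate 3 the counts were 9 and 4. The summed level of the list was 4020, 2824 and 510 CPM in the Null replicates, against 1767 to 2461 CPM in WT libraries, so that replicates 1 and 2 lay above and replicate 3 below all WT libraries. Myl7, the atrial light chain, was at 938, 485 and 80.0 CPM against 182 to 284 CPM with a median of 225 (log2 fold change 1.12, SE 0.39, adjusted p = 0.0324, 1.62 without Null replicate 3). Its call was lost without Null replicate 1 (0.29), Null replicate 2 (1.14) or any of WT replicates 1, 5, 6 and 9. Tnnt2, cardiac troponin T, was at 351, 225 and 39.2 CPM against 72.3 to 125 CPM with a median of 86.7 (log2 fold change 1.15, SE 0.36, adjusted p = 0.0201, 1.63 without Null replicate 3), and its call was lost without Null replicate 1 (0.51) or 2 (1.07).

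Of the 5 DEGs lower, Nppa, Myl2, Smpx and Pln were below all WT libraries in all 3 Null libraries, while the 4 DEGs higher of the same list were not above WT in replicate 3. Nppa, the atrial natriuretic peptide of the chamber myocardium, was at 0, 2.23 and 0 CPM against 15.8 to 36 CPM with a median of 23.0 (log2 fold change -4.91, SE 0.63, adjusted p = 3.12e-05, -4.31 without Null replicate 3). Myl2, the ventricular light chain, was at 14.6, 35.3 and 1.12 CPM against 61.5 to 116 CPM with a median of 78.6 (log2 fold change -2.23, SE 0.53, adjusted p = 0.00397, -1.68 without Null replicate 3). Pln, which regulates calcium uptake, was at 0, 1.31 and 0 CPM against 2.51 to 6.68 CPM with a median of 3.95 (log2 fold change -3.29, SE 0.73, adjusted p = 0.00247, -2.70 without Null replicate 3). Replicate 2 held all Null counts of Nppa and Pln and most of those of Myl2, and without it Nppa and Pln had no Null count and the log2 fold change of Myl2 was -3.38.

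Some endothelial genes were higher. Of 25 tested, 8 were DEGs higher and 1, Emcn, lower (7 and 1 without Null replicate 3), and 14 did not pass. Etv2, which specifies the endothelial lineage, was at 12.4, 24.8 and 8.73 CPM against 1.38 to 4.13 CPM with a median of 2.64 (log2 fold change 2.43, SE 0.30, adjusted p = 2.36e-05, 2.71 without Null replicate 3), and the receptors Kdr and Flt1 at 125, 347 and 209.8 CPM against 77.2 to 122 CPM with a median of 112 (log2 fold change 1.12, SE 0.21, adjusted p = 0.000711, 1.17 without Null replicate 3) and 51.9, 131 and 81.1 CPM against 27.0 to 42.5 CPM with a median of 37 (log2 fold change 1.29, SE 0.20, adjusted p = 0.000147, 1.34 without Null replicate 3). All 3 were highest in replicate 2, without which Kdr was at 0.68 and Flt1 at 0.88. Emcn, a sialomucin of vessels, was at 3.25, 10.7 and 3.37 CPM against 18.1 to 25.6 CPM with a median of 22.4 (log2 fold change -1.94, SE 0.30, adjusted p = 0.000162, -1.66 without Null replicate 3). None of the 4 overlapped.

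Red cell genes depended on replicate 3. Of 8 globins, 3 were DEGs lower (Hbb-y, Hba-a1 and Hba-a2), and 5 of the 9 tested without Null replicate 3. Hbb-y, the embryonic beta-like globin of primitive red cells, was at 1980.3, 421 and 601 CPM against 3032 to 10891 CPM with a median of 4257 (log2 fold change -2.44, SE 0.50, adjusted p = 0.00132, -2.18 without Null replicate 3), and Hba-a1 at 421, 102 and 472 CPM against 619 to 2184 CPM with a median of 913 (log2 fold change -1.80, SE 0.45, adjusted p = 0.00552, -2.15 without Null replicate 3), though tags of Hba-a1 and its near-identical copy Hba-a2 could be split either way. Hbb-bh1, the earliest of the beta-like globins, was at 1653, 562 and 6711 CPM against 1547 to 4634 CPM with a median of 1811 and did not pass (log2 fold change 0.30, SE 0.50, adjusted p = 0.673), while without Null replicate 3 it was -1.13 (adjusted p = 0.0477). Of 24 other erythroid genes 3 were DEGs higher (Nfe2, Car2 and Gfi1b) and 0 lower with all libraries, and 0 higher and 12 lower without Null replicate 3.

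The summed levels of genes that cells turn on in low oxygen were higher in all 3 Null libraries than in any WT library. The factor HIF binds a short core motif near such genes, which include glucose transporters, glycolytic enzymes and its own negative regulators. Of 22 glycolysis genes tested, 7 were DEGs higher and 15 passed higher with 0 lower, and of 23 other targets of the factor 11 were DEGs higher and 17 passed higher with 0 lower, against 9.35% DEGs higher and 20.2% passed higher of all genes. Without Null replicate 3 there were 8 and 11 DEGs higher. Every Null library lay above every WT library in 12 of the glycolysis genes and 11 of the other targets, against 10.8% of all genes. The summed level of the glycolysis list was 13814, 10409 and 11201 CPM in the Null replicates against 5318 to 6717 CPM in WT libraries, and that of the other targets 1217, 1427 and 1300.2 CPM against 636 to 784 CPM.

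Slc2a1, the main glucose transporter of the embryo, was at 1544, 1375 and 1419 CPM against 329 to 504 CPM with a median of 410.4 (log2 fold change 1.87, SE 0.11, adjusted p = 2.51e-08, 1.88 without Null replicate 3). Slc2a3, a high-affinity glucose transporter that is also abundant in trophoblast, was at 1395, 1182 and 2270.0 CPM against 163 to 382 CPM with a median of 226 (log2 fold change 2.76, SE 0.20, adjusted p = 1.99e-07, 2.42 without Null replicate 3). The enzymes Pfkp, at 58.4, 49.9 and 49.3 CPM against 6.29 to 12.1 CPM with a median of 9.42 (log2 fold change 2.53, SE 0.17, adjusted p = 7.44e-08, 2.57 without Null replicate 3), and Hk2, at 533, 413 and 328 CPM against 155 to 255 CPM with a median of 199 (log2 fold change 1.10, SE 0.14, adjusted p = 3.41e-05, 1.25 without Null replicate 3), which carry out early steps of glycolysis, rose, as did Slc16a3, an exporter of lactate, at 566, 396 and 330.4 CPM against 108 to 212 CPM with a median of 142 (log2 fold change 1.56, SE 0.18, adjusted p = 1.04e-05, 1.72 without Null replicate 3). In these 5 genes every Null library lay above every WT library. Ldha, lactate dehydrogenase, rose by less than 2-fold, at 2370.3, 1923 and 1674 CPM against 930.2 to 1232 CPM with a median of 1101 (log2 fold change 0.86, SE 0.10, adjusted p = 1.93e-05, 0.97 without Null replicate 3), and Gapdh, at 208, 301 and 204 CPM against 163 to 259.5 CPM with a median of 226, did not pass (log2 fold change 0.09, SE 0.14, adjusted p = 0.631).

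Among the other targets, Egln3, a prolyl hydroxylase that marks HIF for destruction, was at 30.0, 51.2 and 30.3 CPM against 6.42 to 9.82 CPM with a median of 9.42 (log2 fold change 2.07, SE 0.17, adjusted p = 5.35e-07, 2.20 without Null replicate 3). Bnip3, which directs mitochondria to autophagy, was at 179, 167 and 165 CPM against 39.1 to 75.9 CPM with a median of 51.1 (log2 fold change 1.65, SE 0.16, adjusted p = 2.44e-06, 1.66 without Null replicate 3). Ddit4, an inhibitor of mTORC1, was at 183, 185 and 91.4 CPM against 30.6 to 58.3 CPM with a median of 44.5 (log2 fold change 1.78, SE 0.19, adjusted p = 5.79e-06, 2.04 without Null replicate 3). Ndrg1 was at 40.7, 37 and 134 CPM against 5.57 to 9.67 CPM with a median of 7.90 (log2 fold change 3.13, SE 0.28, adjusted p = 1.19e-06, 2.26 without Null replicate 3). Vegfa, which draws in vessels, was at 19.5, 43.5 and 35.3 CPM against 10.2 to 17.8 CPM with a median of 13.3 (log2 fold change 1.21, SE 0.21, adjusted p = 0.000435, 1.14 without Null replicate 3). None overlapped between the groups, and for Slc2a1, Pfkp and Bnip3 the 3 Null libraries lay close together despite their distance from each other elsewhere.

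The promoters of these genes were searched for the letters ACGTG, the core of the hypoxia response element, on both strands, with matches that overlap across the strands kept as 1 stretch. RefSeq promoters of GRCm38.p6 (300 bases around the start) were matched for 13 of the 18 DEGs higher of the 2 lists, and 9 of the 13 (69.2%) held the motif, as did 19 of 38 tested members matched (50%), 25.9% of 10087 promoters of genes tested and 19.6% of all 32851 promoters of the table. A match is a description of letters, not evidence of binding. Those of Slc2a1, Egln3 and Bnip3, the DEGs of smallest p that hold a match, are shown 5′ to 3′ on the strand of the gene, because these genes rose together, with the motif or its reverse in capitals.
Slc2a1 (chr4:119108495-119108794, plus strand): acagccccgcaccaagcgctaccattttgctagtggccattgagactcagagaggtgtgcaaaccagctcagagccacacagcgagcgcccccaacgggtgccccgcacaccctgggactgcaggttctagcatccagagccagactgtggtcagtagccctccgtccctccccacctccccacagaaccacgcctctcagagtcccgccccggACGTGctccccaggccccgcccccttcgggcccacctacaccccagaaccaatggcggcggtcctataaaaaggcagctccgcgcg
Egln3 (chr12:54203825-54204124, minus strand): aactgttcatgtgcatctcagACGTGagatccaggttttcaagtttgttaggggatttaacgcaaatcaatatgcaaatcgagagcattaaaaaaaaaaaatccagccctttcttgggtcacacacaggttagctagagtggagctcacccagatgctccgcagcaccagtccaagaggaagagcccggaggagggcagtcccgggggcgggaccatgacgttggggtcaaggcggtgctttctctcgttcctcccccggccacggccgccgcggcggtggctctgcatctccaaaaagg
Bnip3 (chr7:138909457-138909756, minus strand): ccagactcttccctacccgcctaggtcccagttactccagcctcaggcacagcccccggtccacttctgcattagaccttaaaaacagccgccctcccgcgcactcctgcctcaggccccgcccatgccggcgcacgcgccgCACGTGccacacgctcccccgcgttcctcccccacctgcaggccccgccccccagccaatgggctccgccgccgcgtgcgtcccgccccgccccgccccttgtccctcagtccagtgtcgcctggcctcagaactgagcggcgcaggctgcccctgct
Slc2a1 and Egln3 hold 1 match each on the strand of the gene, and in Bnip3 the 2 strands match in 1 stretch of overlapping letters. The letters were not found in the windows of Pfkp, Vegfa, Tmem45a and Stc2.

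**Figure D4:**
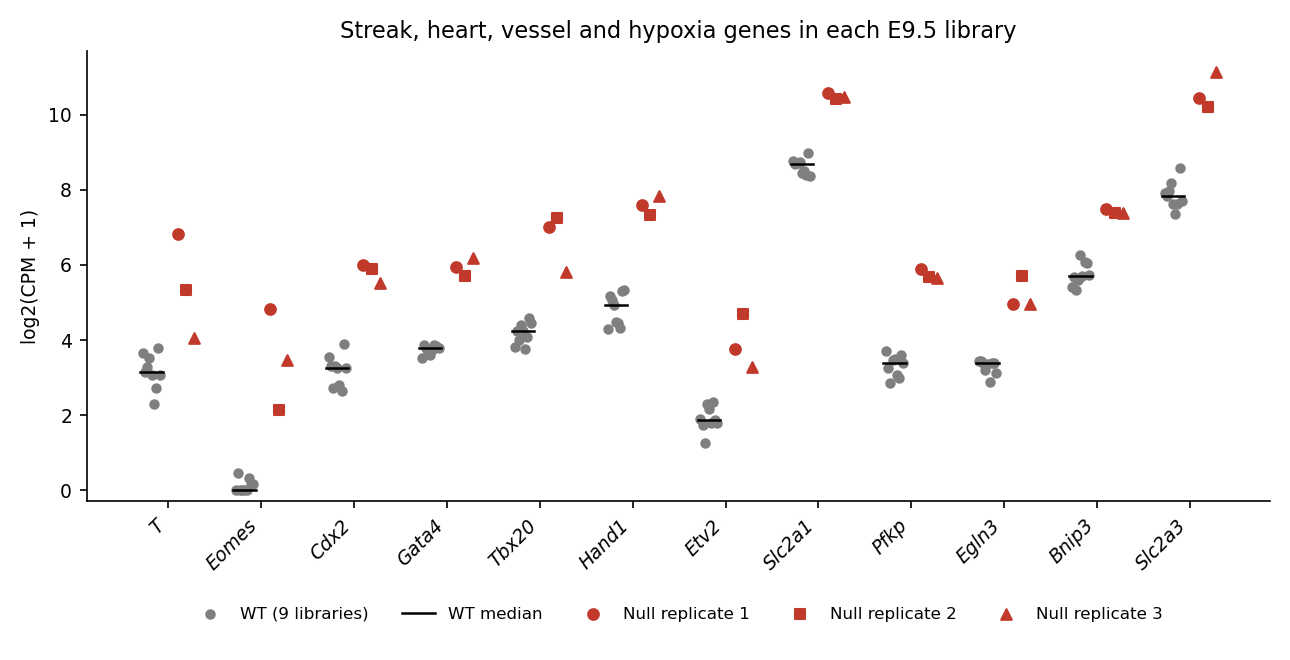
Level of 12 genes of the streak and tailbud, heart, vessel lineage and hypoxia response as log2(CPM + 1) in each E9.5 library, for 9 WT libraries (grey, with the median as a line) and the 3 Null replicates (red, 1 marker for each). All Null libraries lie above all WT libraries in the 12 genes, and the spread between Null replicates is wide for T and Eomes and narrow for Slc2a1, Pfkp and Bnip3.

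Genes of the yolk sac and visceral endoderm, a tissue from which the embryos had been freed, were higher in nearly every member tested. Of 33 tested, 32 were DEGs higher and 1, Serpina1b, lower (log2 fold change -2.03, SE 0.62, adjusted p = 0.018), with a median log2 fold change of 5.12, and without Null replicate 3 the counts were 21 and 1 and the median was 2.21. The summed level was 2207, 2769 and 12182 CPM in the Null replicates and 502 to 826 CPM in WT libraries. Ttr, the carrier of thyroid hormone, was at 93.1, 236 and 1459 CPM against 4.45 to 41.2 CPM with a median of 9.05 (log2 fold change 5.70, SE 0.65, adjusted p = 1.06e-05, 3.84 without Null replicate 3). Apoa1 of lipoproteins was at 19.2, 76.8 and 635 CPM against 0.970 to 15.4 CPM with a median of 2.58 (log2 fold change 6.07, SE 0.77, adjusted p = 2.89e-05, 3.72 without Null replicate 3). Amn, which anchors the endocytic receptor cubilin, was at 6.08, 35.1 and 397 CPM against 0.349 to 4.02 CPM with a median of 0.865 (log2 fold change 6.76, SE 0.79, adjusted p = 1.38e-05, 3.93 without Null replicate 3). Spink1, a trypsin inhibitor of yolk sac and gut, was at 303, 291 and 1049 CPM against 2.89 to 16.2 CPM with a median of 5.19 (log2 fold change 6.22, SE 0.40, adjusted p = 4.95e-08, 5.34 without Null replicate 3). All 4 lay above all WT libraries in the 3 Null libraries and were highest in replicate 3, though Apoa1 and Amn in replicate 1 were close to the highest WT library. Every Null library lay above every WT library in 20 of the 33 genes, against 10.8% of all genes. Afp, the main serum protein of the embryo, was not among these 20, at 5.09, 30.4 and 451 CPM against 8.73 to 23.2 CPM with a median of 14.4, with replicate 1 below all WT libraries, and its call (log2 fold change 3.45, SE 0.67, adjusted p = 0.000994) was lost without Null replicate 3 (0.26, adjusted p = 0.668). The part of yolk sac tissue in the other results was not tested.

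Placental genes moved in the same direction. Of 13 tested, 11 were DEGs higher and 1, Prl3b1, lower (9 and 2 without Null replicate 3), and the summed level was 2593, 2925 and 5977 CPM in the Null replicates against 413 to 738 CPM in WT libraries. Some members of the list were also present in every WT library, and the source of the rise was not tested. Phlda2, an imprinted gene that restrains placental growth, was at 391, 762 and 1184 CPM against 20.1 to 71.4 CPM with a median of 32.2 (log2 fold change 4.37, SE 0.30, adjusted p = 8.59e-08, 3.93 without Null replicate 3). Peg10, an imprinted gene derived from a retrotransposon, was at 527, 587 and 943 CPM against 134 to 183 CPM with a median of 144 (log2 fold change 2.19, SE 0.14, adjusted p = 5.62e-08, 1.88 without Null replicate 3). The other 19 members of the list were too low to be tested, among them defining trophoblast genes such as Tpbpa, at 0, 0.131 and 0.249 CPM, Prl3d1, at 0, 1.05 and 0 CPM, and Synb, at 0, 0 and 0 CPM, each at or near 0 in WT libraries as well. Among the other genes taken as defining trophoblast, Rhox6 rose, at 3.53, 10.4 and 145 CPM against 0 to 0.606 CPM in WT libraries, while Prl3b1 was the DEG lower. Ascl2 of the trophoblast was at 2.97, 2.75 and 85.6 CPM against 0 to 1.16 CPM. Of 11 decidual genes 7 were DEGs higher, and the summed level was 1895, 1928 and 1649.7 CPM against 485 to 703 CPM, while the uterine natural killer genes Gzmc, at 0.141, 1.05 and 0.624 CPM, Prf1, at 0, 1.18 and 0.624 CPM, and Ncr1, at 0, 0 and 0 CPM, were too low to be tested. Prl8a2, a prolactin-like gene of the decidua, was at 4.10, 128 and 6.36 CPM against 0 to 1.01 CPM with a median of 0.126 (log2 fold change 7.27, SE 0.87, adjusted p = 1.82e-05, 7.79 without Null replicate 3), carried by replicate 2, without which it was 4.13. Tbx4 of the allantois and hindlimb was likewise highest in replicate 2, at 13.3, 94.8 and 32.1 CPM against 3.02 to 6.30 CPM with a median of 5.15 (log2 fold change 3.25, SE 0.36, adjusted p = 7.92e-06, 3.46 without Null replicate 3). The simple-epithelium keratins rose in all Null libraries, with Krt8 at 229.6, 189.9 and 165 CPM against 21.9 to 39.2 CPM with a median of 29.8 (log2 fold change 2.70, SE 0.14, adjusted p = 5.28e-09, 2.80 without Null replicate 3) and Krt18 at 773, 304 and 363 CPM against 52.4 to 76.6 CPM with a median of 72.1 (log2 fold change 2.84, SE 0.20, adjusted p = 1.08e-07, 3.00 without Null replicate 3), the latter highest in replicate 1.

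**Figure D5:**
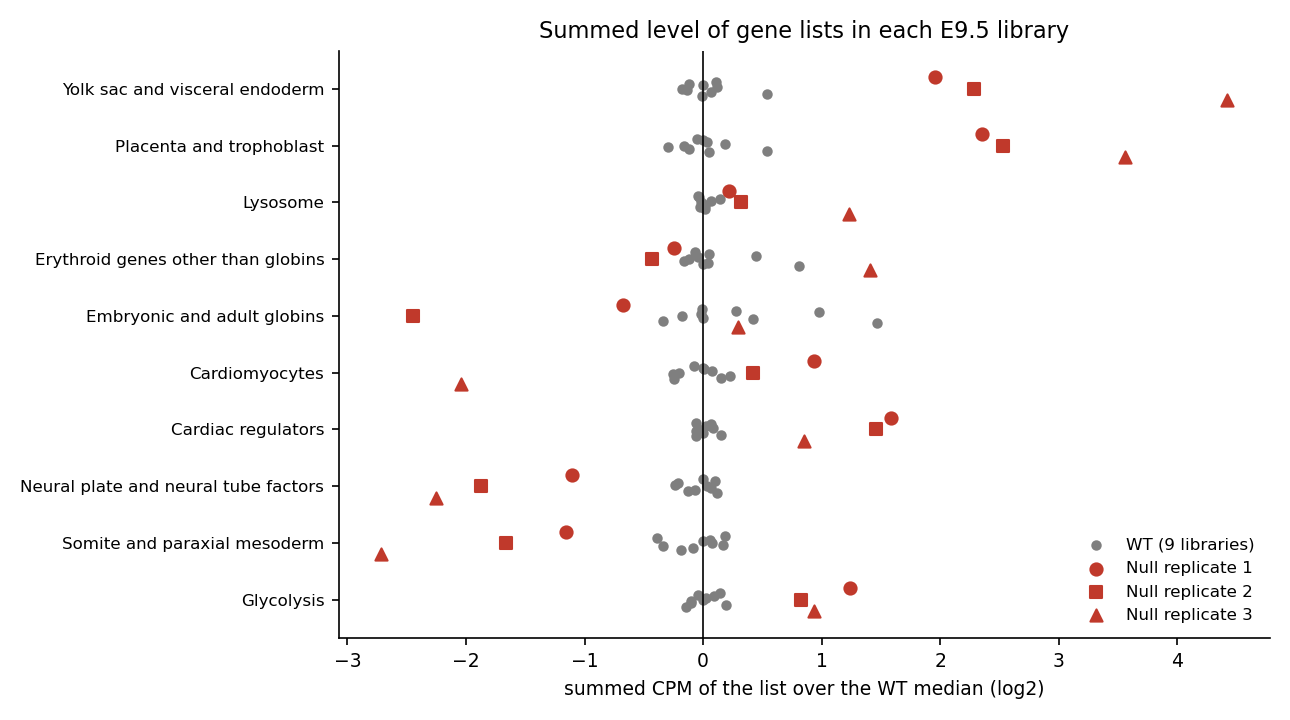
Summed CPM of the genes of 10 lists in each E9.5 library, relative to the WT median, on a log2 scale, for 9 WT libraries (grey) and the 3 Null replicates (red, 1 marker for each). The yolk sac sum of replicate 3 (12182 CPM) is far above those of replicates 1 and 2 (2207 and 2769 CPM), its cardiomyocyte sum (510 CPM) is below all WT libraries while theirs are above, and all 3 replicates lie below WT for neural tube factors and above it for glycolysis.

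Lysosomal genes were higher mainly in replicate 3. Of 30 tested, 13 were DEGs higher and 1, Scarb2, lower, and without Null replicate 3 these were 2 and 1. Ctsb, a lysosomal protease, was at 60.9, 94.2 and 484 CPM against 55.6 to 77.1 CPM with a median of 65.9 (log2 fold change 1.71, SE 0.37, adjusted p = 0.00227, and 0.24 with an adjusted p of 0.207 without replicate 3). Npc1, which exports cholesterol from lysosomes, rose with and without it, at 52.7, 45.3 and 98.7 CPM against 14.9 to 26.0 CPM with a median of 22.4 (log2 fold change 1.59, SE 0.20, adjusted p = 2.35e-05, 1.16 without Null replicate 3), as did the ion channel Mcoln1, at 9.47, 4.46 and 14.5 CPM against 1.36 to 2.79 CPM with a median of 1.73 (log2 fold change 2.24, SE 0.32, adjusted p = 6.95e-05, 1.79 without Null replicate 3). Ctsa was at 64.3, 51.2 and 106 CPM against 23.9 to 33.3 CPM with a median of 30.5 (log2 fold change 1.29, SE 0.16, adjusted p = 2.68e-05, 0.93 without Null replicate 3). The summed level was 2571, 2759 and 5187 CPM in the Null replicates against 2152 to 2443 CPM in WT libraries, and the yolk sac sum was highest in the same library, whose part in this was not tested.

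Cholesterol synthesis genes were lower. Of 24 tested, 7 were DEGs lower, 17 passed lower and 0 passed higher, against 17.4% passed lower of all genes, and without Null replicate 3 the DEGs lower numbered 12. Hmgcs1, which makes the precursor of mevalonate, was at 99.8, 76.8 and 125 CPM against 208 to 345 CPM with a median of 284 (log2 fold change -1.54, SE 0.17, adjusted p = 7.65e-06, -1.73 without Null replicate 3). Cyp51, a later enzyme, was at 59.1, 40.1 and 59.0 CPM against 116 to 182 CPM with a median of 147 (log2 fold change -1.51, SE 0.16, adjusted p = 5.54e-06, -1.60 without Null replicate 3). Neither overlapped.

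Lists of stress and death genes differed among themselves. Over all genes tested 9.35% were DEGs higher and 7.67% lower, and 20.2% passed higher and 17.4% lower. Of 20 apoptosis genes 0 were DEGs by edgeR or DESeq2, with 1 that passed higher and 4 lower by edgeR (2 and 4 at an unadjusted p under 0.05). Of 18 genes of the unfolded protein response 0 were DEGs by either tool and 6 passed higher by edgeR (7 at an unadjusted p under 0.05). Hspa5, the chaperone that marks this response, was at 1354, 1208 and 1543 CPM against 1205 to 1715 CPM with a median of 1429.9 (adjusted p = 0.686). Of 18 heat shock and immediate early genes 6 were DEGs higher, and 2 without Null replicate 3, with Klf4 at 9.89, 11.4 and 34.2 CPM against 1.36 to 4.61 CPM with a median of 3.02 (log2 fold change 2.58, SE 0.34, adjusted p = 4.09e-05, 1.78 without Null replicate 3). Of 23 genes of the integrated stress response 4, Chac1, Sesn2, Vldlr and Cebpb, were DEGs higher and 1, Slc7a11, lower (3 and 2 without Null replicate 3). In that list 6 passed higher and 3 lower, against 20.2 and 17.4% of all genes. Of 22 p53 targets 2, Pmaip1 and Sesn2, were DEGs higher, a share like the 9.35% of all genes, and 7 passed higher, against 20.2% of all genes. Sesn2 was at 18.4, 9.96 and 24.7 CPM against 4.08 to 10.7 CPM with a median of 6.03 (log2 fold change 1.46, SE 0.28, adjusted p = 0.00101, 1.13 without Null replicate 3), and Cdkn1a, the best known of them, was at 16.4, 22.0 and 22.1 CPM against 16.7 to 25.0 CPM with a median of 20.8 (adjusted p = 0.842). Of 30 cell cycle genes 1, Ccnd1, was a DEG, at 229.6, 327 and 138 CPM against 434 to 577 CPM with a median of 524 (log2 fold change -1.18, SE 0.19, adjusted p = 0.000178, -0.92 without the replicate), while Mki67, a proliferation marker, was at 112, 115 and 125 CPM against 85.7 to 125 CPM with a median of 96.1 (adjusted p = 0.152). In that list 10 genes passed lower and 1 higher, against 17.4 and 20.2% of all genes. Every Null library lay below every WT library in 8 of the 30, against 12.1% of all genes. The summed level of the list was 8471, 8542 and 7160 CPM in the Null replicates against 8810 to 10353 CPM in WT libraries. Of 22 genes of ribosome biogenesis and Myc the 1 DEG was Mycl, at 13.4, 12.6 and 8.11 CPM against 41.7 to 63.3 CPM with a median of 50.5 (log2 fold change -2.20, SE 0.19, adjusted p = 8.8e-07, -2.01 without Null replicate 3). Of these genes 6 passed lower and 1 higher. Their summed level was 8926, 8719 and 9228 CPM in the Null replicates against 10656 to 12643 CPM in WT libraries. Of 14 NF-kB genes 0 were DEGs by either tool and 3 passed higher by edgeR (4 at an unadjusted p under 0.05), a share like the 20.2% of all genes.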

How the data were processed

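The deposited values were raw counts per Ensembl gene identifier, whole numbers that the authors made from QuantSeq 3′ FWD reads by adapter trimming and alignment with STAR to mm10. The submitters' processing notes name Trimmomatic 0.35 and the study's methods BBDuk for the trimming. How reads were counted, with which annotation and with or without strand, is not given in the sources used. Tags of overlapping genes may therefore be mixed, and of 147 named genes looked up, 64 overlap another annotated gene (GENCODE vM21), 26 of them one on the same strand. Columns were assigned by library number, and 0 columns lacked a sample. Of 55414 identifiers 52081 had a symbol.

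Counts of the 12 libraries were tested with the quasi-likelihood test of edgeR 4.0.16 (R 4.3.3), with TMM factors, the filterByExpr filter (a minimum of 10 counts) and Benjamini-Hochberg adjustment over all 13483 genes tested. DEGs had an adjusted p of 0.05 or less and at least a 2-fold change. Log2 CPM used a prior count of 2. On simulated data with known changes (13253 genes), 31 of 50 genes changed 2-fold, 48 of 50 changed 4-fold and 50 of 50 changed 8-fold passed, as did 8 of 13054 unchanged genes. The simulation gave both groups the same spread, while the real Null libraries lay farther apart than the WT libraries. These rates therefore need not hold for the real comparison. No pair of libraries was a duplicate (chi-square per gene 3.00 to 81.6). Replicate numbers 1 to 3 did not pair the groups (correlation of deviations -0.04 to 0.12). Alternatives were DESeq2 1.42.0, other scalings and filters, a replicate block, all 32 libraries in 1 model and each library left out. Figures and exact permutation tests used Python 3.11.15 with numpy 2.4.6, pandas 2.3.3, scipy 1.17.1 and matplotlib 3.10.9.

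The comparison and the 50 gene lists were chosen with earlier results of these data known, and the lists were written from general knowledge. Genes were named by rule, as the 10 largest increases and decreases among DEGs without overlap and with a mean of at least 10 CPM, the first 3 members of each list and up to 4 others of smallest p, the genes in which Null replicate 3 departed most from replicates 1 and 2, and genes named in the study. Among the largest increases and decreases, lack of overlap was thus a condition and not a result. Some genes that the rule takes are counted in their lists but not reported here. Otx2, Six3, Olig2, Tubb3, Lhx1, Dkk1, Emcn, Hk2 and Serpina1b, and members named because a count was 5 or fewer, fell outside it and were chosen after their values were seen.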

Additional observations from a re-analysis of the deposited data

Results flagged for a closer look

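Of 151 values looked at, 12 had 1 WT library that lay far from the other 8, and chance flags about 1 in 20 groups. WT replicate 8 was the far library in 6 of them, all high. It held Ttr at 41.2 CPM (others 4.45 to 11.3), Apoa1 at 15.4 CPM (0.970 to 3.77), Amn at 4.02 CPM (0.349 to 1.89), Pdzk1 at 1.63 CPM (0 to 0.698), L1td1 at 4.90 CPM (1.26 to 2.87), and 4933402E13Rik at 1.13 CPM (0 to 0.408). The same library had the highest yolk sac sum of the WT group (826 CPM) and lay nearest the Null libraries on the first principal component (-6.84). In all of these genes the Null libraries lay above it.

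The others were Tfap2a in WT replicate 1 at 32.9 CPM (18.0 to 24.5), Ccnd1 in WT replicate 3 at 434 CPM (509 to 577), Sfrp5 in WT replicate 4 at 13.4 CPM (7.79 to 10.4), Meg3 in WT replicate 7 at 134 CPM (51.5 to 86.7), and in WT replicate 9 Ascl2 at 1.16 CPM (0 to 0.272) and Mt1 at 203 CPM (51.8 to 109). No cause was tested.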

How the results depend on the processing

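Against 2295 DEGs (1261 higher, 1034 lower), a stricter filter of 50 counts gave 1337 (722 and 615), no minimum of the fold change 5068 (2722 and 2346), and no filter 1926 higher. The replicate number as a block, though the numbers do not pair the libraries, left 568 (260 and 308), 174 list DEGs in place of 344, and Commd10 at 0.67 (adjusted p = 0.134), and 100 of 131 called genes followed passed. DESeq2 gave 2855 DEGs (1514 and 1341), library sizes without factors 937 higher and 1409 lower, and all 32 libraries 1524 and 1102. Leaving out each library in turn gave 2192 to 2812 DEGs, with 1143 to 1464 higher and Commd10 at 0.58 to 0.84. Of the 131 called genes, 120 kept call and direction in every alternative other than the block. With 1 library left out, Otx2 ranged over -1.95 to 0.59 and reversed without Null replicate 1, while Hbb-bh1 (-1.13 to 0.78), Ddx3y (-10.37 to 0.93) and Eif2s3y (-8.72 to 1.25) reversed without Null replicate 3, the Y-linked pair then having no Null count, so that their folds are set by the fit. The difference in mitochondrial share ranged over -1.98 to -1.04 points with 1 library left out, and missed the threshold without Null replicate 1 (-1.11) or 2 (-1.04). With the most abundant identifier taken out of the totals it was -0.97 points (exact two-sided permutation p = 0.0455). The mean distance of Null replicate 3 from replicates 1 and 2 was 1.21, 1.42 with a prior count of 0.5 and 0.926 over genes of at least 10 CPM. The cause of these changes was not tested. With 3 Null libraries that differ widely, small changes are poorly resolved, and counts near 0 limit the folds of proneural genes.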

Other observations

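Genes of an earlier embryo and of its matrix also differed. The counts of this section stand beside 9.35% DEGs higher and 7.67% lower over all genes. Of 11 genes around the RNA-binding protein Lin28 and stage, 3 were DEGs higher (Lin28a, Dnmt3b and L1td1) and 2 lower (Lin28b and Hmga1). Lin28a, which blocks the maturation of let-7 miRNAs, was at 655, 378 and 311 CPM in Null replicates 1, 2 and 3 against 154 to 269 CPM with a median of 214 in WT libraries (log2 fold change 1.10, SE 0.19, adjusted p = 0.000313, 1.30 without Null replicate 3 and 0.72 without replicate 1). Dnmt3b, a DNA methyltransferase of the epiblast, was at 317, 147 and 238 CPM against 57.1 to 82.7 CPM with a median of 64.8 (log2 fold change 1.81, SE 0.16, adjusted p = 1.21e-06, 1.79 without Null replicate 3) and L1td1, an RNA-binding protein of pluripotent cells, at 69.1, 15.6 and 90.6 CPM against 1.26 to 4.90 CPM with a median of 2.04 (log2 fold change 4.66, SE 0.38, adjusted p = 4.75e-07, 4.19 without Null replicate 3). None of the 3 overlapped between the groups.

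Of 30 genes of the extracellular matrix and basement membrane 11 were DEGs higher and 4, Col3a1, Col9a1, Lum and Dcn, lower, and without Null replicate 3 these were 6 and 2. Fibronectin (Fn1) rose, at 525, 598 and 282 CPM against 105 to 192 CPM with a median of 140.3 (log2 fold change 1.75, SE 0.18, adjusted p = 5.04e-06, 2.01 without Null replicate 3), as did Sparc of basement membranes, at 650.5, 778 and 847 CPM against 268 to 371 CPM with a median of 319.5 (log2 fold change 1.24, SE 0.10, adjusted p = 5.59e-07, 1.15 without Null replicate 3). Col3a1, a fibrillar collagen of mesenchyme, fell, at 6.08, 45.9 and 13.8 CPM against 151 to 285 CPM with a median of 182 (log2 fold change -3.18, SE 0.45, adjusted p = 6.69e-05, -2.94 without Null replicate 3). Of 22 imprinted genes 7 were DEGs higher and 1, Nnat, lower. The maternally expressed long RNAs Rian, at 44.5, 45.7 and 59.1 CPM against 14.3 to 22.6 CPM with a median of 16.7 (log2 fold change 1.5, SE 0.16, adjusted p = 4.93e-06, 1.35 without Null replicate 3), and Meg3, at 269, 182 and 88.6 CPM against 51.5 to 134 CPM with a median of 82.6 (log2 fold change 1.14, SE 0.26, adjusted p = 0.00331, 1.46, and 0.72 without Null replicate 1), rose together with Phlda2 and Peg10. Of 12 metallothionein and copper transport genes 3, Mt1, Atp7b and Sco2, were DEGs higher. The call of Mt1 (log2 fold change 1.49, SE 0.44, adjusted p = 0.0142), at 90.6, 133 and 572 CPM, was lost without Null replicate 3 (0.24, adjusted p = 0.637).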
